A study of Homo sapiens with 18 samples.

Results

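The genes described are ligands of the interleukin-6 (IL-6) and interleukin-12 (IL-12) families and the colony-stimulating factors: IL6, IL11, LIF, CLCF1, EBI3, IL12A, IL23A, CSF1, CSF2 and CSF3. They were chosen by name, and each was read from the transcript cluster (the array's unit for a gene) that is annotated with that symbol alone. Of the 10 genes, 8 have such a transcript cluster, 1 each, among the 18377 genes of the series that do. CLCF1 and CSF2 were not analysed here. The values are log2 signals, and each gene's levels are compared with its own levels only.

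The study treated ECV304 cells, a human line whose labels call it endothelial with both endothelial and epithelial traits and which is known to derive from a urinary bladder carcinoma line. The cells were grown to confluence, kept in 1% serum for 24 h, and then given recombinant IL-1β, an inflammatory cytokine, at 100 IU/ml. The 3 aminaphtone groups also received aminaphtone, a synthetic drug used in microvascular disorders, at 6 µg/ml for 1, 3 or 6 h, and the 3 control groups received IL-1β with the same volume of medium for 1, 3 or 6 h. Each of the 6 groups has 3 arrays, described as independent replicates, which makes 18 arrays in all. Every group carries IL-1β, and no unstimulated or starting sample was analysed here, so the response to IL-1β itself is seen only as change between the times. All samples come from 1 cell line.

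Cytokines of the IL-6 family (IL-6, IL-11, LIF and cardiotrophin-like cytokine) signal through receptor complexes that share the chain gp130, encoded by IL6ST, and activate JAK kinases and STAT3. Those of the IL-12 family are paired chains: IL12A encodes p35, IL23A encodes p19, and both pair with p40, encoded by IL12B, while EBI3 pairs with p35 in IL-35 and with p28, encoded by IL27, in IL-27. CSF1 (macrophage CSF) acts on a receptor tyrosine kinase of macrophages and their precursors, and CSF3 (granulocyte CSF) on the neutrophil lineage. Stromal, epithelial and endothelial cells make several of these factors when stimulated with IL-1, and NF-κB, AP-1 and C/EBP factors are known to drive them.

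The 250 bases before the transcription start are shown for the 3 genes with a called difference (an adjusted p under 0.05 with no pairing of arrays) for which the RefSeq promoter table (GRCh38.p14) has an entry: EBI3 (chr19:4229273-4229522, plus strand), IL6 (chr7:22726950-22727199, plus strand) and IL12A (chr3:159988585-159988834, plus strand). Capitals mark matches to an AP-1 motif, TGANTCA, or an NF-κB motif, GGG then any 5 bases then CC, on either strand; adjoining or overlapping matches run together.
EBI3: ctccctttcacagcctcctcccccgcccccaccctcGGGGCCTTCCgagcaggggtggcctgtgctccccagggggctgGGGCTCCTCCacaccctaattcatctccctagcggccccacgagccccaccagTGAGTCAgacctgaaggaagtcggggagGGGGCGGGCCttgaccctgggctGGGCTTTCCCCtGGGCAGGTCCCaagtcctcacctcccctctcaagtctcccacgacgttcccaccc
IL6: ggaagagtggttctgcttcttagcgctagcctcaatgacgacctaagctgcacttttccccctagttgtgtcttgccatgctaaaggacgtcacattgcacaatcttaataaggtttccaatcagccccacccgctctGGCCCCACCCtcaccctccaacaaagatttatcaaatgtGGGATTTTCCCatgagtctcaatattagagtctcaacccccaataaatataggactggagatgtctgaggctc
IL12A: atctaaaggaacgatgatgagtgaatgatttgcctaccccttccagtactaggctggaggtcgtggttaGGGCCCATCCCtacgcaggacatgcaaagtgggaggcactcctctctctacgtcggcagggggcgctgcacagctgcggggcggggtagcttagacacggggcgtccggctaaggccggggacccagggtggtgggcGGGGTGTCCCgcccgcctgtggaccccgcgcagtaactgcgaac
The EBI3 sequence holds TGAGTCA at 118 to 112 bases before the start and, at 67 to 58 bases, GGGCTTTCCC, which overlaps a further NF-κB match. Counted on both strands, it has 8 NF-κB matches, several of them overlapping or palindromic. The IL6 sequence holds GGGATTTTCC at 73 to 64 bases and no AP-1 match, and the IL12A sequence holds GGGGTGTCCC at 44 to 35 bases and no AP-1 match. Of the other genes with an entry, IL23A has TGAGTCA at 77 to 71 bases and GGGGAATCCC at 95 to 86 bases, and IL11 has TGAGTCA at 96 to 90 bases and no NF-κB match. The AP-1 letters occur in 6.57% and the NF-κB letters in 54.4% of all 35116 promoters of that table over the same 250 bases, and both occur in 2.56%. These matches are descriptions of the letters, and no binding was measured.

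Differences were tested by a linear model over all 18 arrays (limma), and a difference is called where the two-sided p adjusted by Benjamini and Hochberg over all 15796 transcript clusters tested is under 0.05. All 8 genes lay above the filter on low signals that defines the 15796, although IL12A and IL23A lay under the median signal of annotated transcript clusters. Signals on the arrays run between 1.854 and 14.25 on the log2 scale. Arrays of the same group correlated at 0.986 or higher, with the exception of the 1 h controls, whose lowest correlation was 0.964. Of the endothelial markers, 6 of 12 lay above the filter (CDH5, TIE1, CLDN5, ESAM, ROBO4 and SOX18), while the defining PECAM1, VWF, TEK and KDR lay under it. The 11 epithelial and urothelial markers measured all lay above it. Among them KRT8 (12.38), KRT18 (11.75) and KRT7 (11.36) were high. The rest, between CDH1 (6.53) and KRT5 (7.48), lay under the median signal of annotated transcript clusters (7.534). Of the endothelial markers ESAM and SOX18 (8.82 each) and CLDN5 (7.73) lay above that median, and the others under it. Above the filter were 5 of 12 leukocyte and 5 of 10 fibroblast markers, and PTPRC, the common leukocyte antigen, lay under the filter. Over the 6 groups the list averages were 6.33 to 6.60 for endothelial, 8.14 to 8.51 for epithelial and urothelial, 6.02 to 6.17 for leukocyte and 5.62 to 5.81 for fibroblast markers. All 4 averages were lower in aminaphtone than in control cells at every time, as in the endothelial list at 1 h (6.33 against 6.48), 3 h (6.44 against 6.60) and 6 h (6.50 against 6.57). These shifts ran in the same direction as the lower means of EBI3, IL12A, IL23A, IL11 and CSF3 described below, and their part in those differences was not tested.

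By group means, aminaphtone cells had less EBI3 at every time and less IL6 and CSF1 at 1 h, while LIF was lower with aminaphtone at 1 h and higher at 3 and 6 h. EBI3 is the 1 gene of the 8 whose difference was called without pairing the arrays. The 1 h differences of 5 genes were called in a fit that paired same-numbered arrays at all 3 times. In both arms EBI3, CSF1 and CSF3 rose between 1 h and 3 or 6 h. LIF fell between 1 and 6 h in control cells, and the change between these times in aminaphtone cells was near 0.

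**Figure D1:**
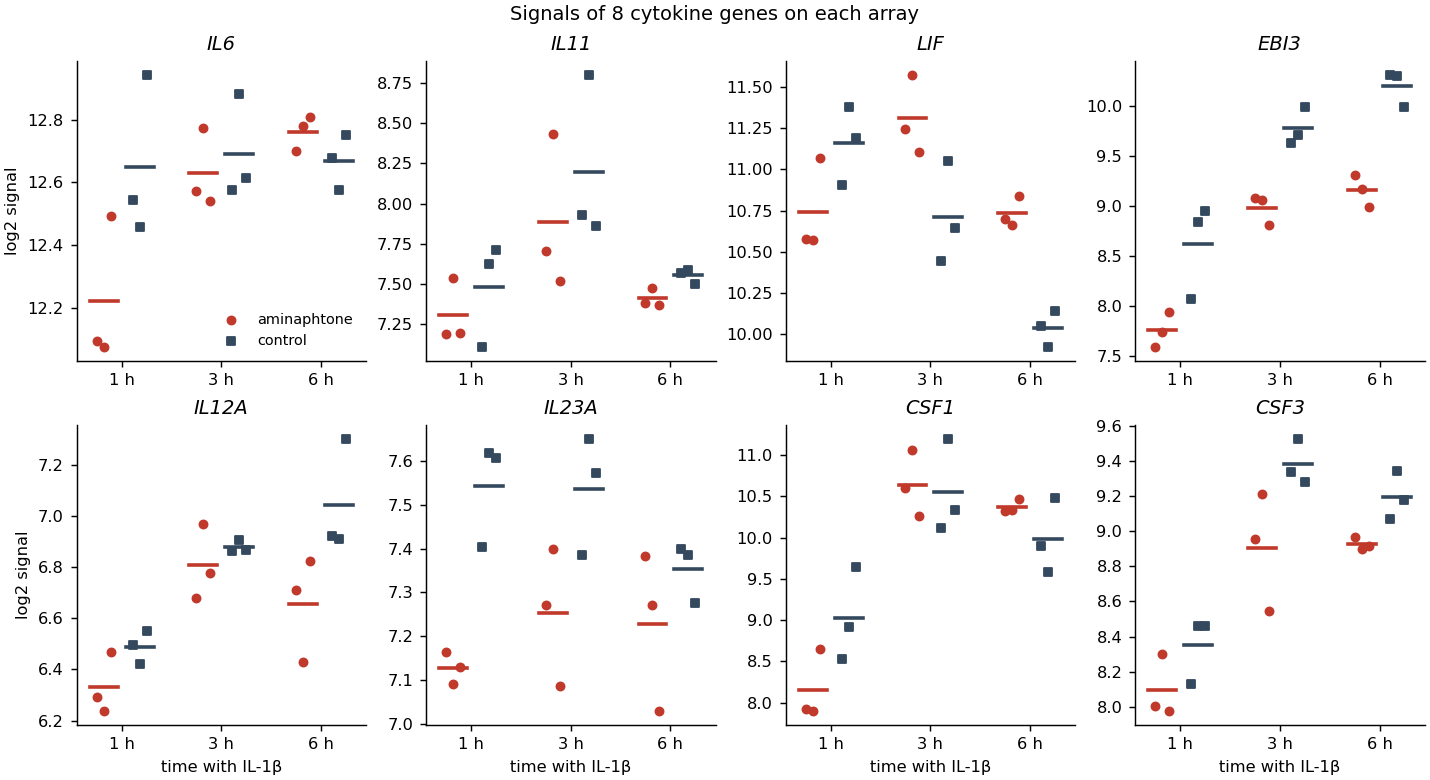
Log2 signal (vertical axis) of each of the 8 genes on each of the 18 arrays at 1, 3 and 6 h, with aminaphtone and control cells side by side; points are arrays and bars are group means. EBI3 lies lower on all 3 aminaphtone arrays than on all 3 control arrays at every time, and LIF lies higher on them at 3 and 6 h.

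Among the IL-6 family ligands, IL6, the founding member and a fever and acute phase cytokine, had signals of 12.09, 12.07 and 12.49 in aminaphtone cells at 1 h, against 12.54, 12.46 and 12.94 in control cells. At 3 h it had 12.57, 12.77 and 12.54 in aminaphtone cells, against 12.58, 12.88 and 12.61 in control cells. At 6 h it had 12.70, 12.78 and 12.81 in aminaphtone cells, against 12.68, 12.57 and 12.75 in control cells. The aminaphtone arrays at 1 h are the low ones, each under its same-numbered control by a like amount, though the groups overlap, and from 3 h on the arms lie among each other. The difference at 1 h was -0.43 log2 (SE 0.142), 1.35-fold lower, with an adjusted p of 0.139 in limma. With same-numbered arrays paired at all 3 times it was called, at an adjusted p of 0.0315. At 3 h the difference was -0.06 (95% interval -0.36 to 0.24) and at 6 h 0.09 (-0.21 to 0.39). Over time IL6 rose in aminaphtone cells by 0.54 log2 (SE 0.142), 1.46-fold, between 1 and 6 h (adjusted p = 0.0138), a call that was lost without aminaphtone 1 h replicate 1 (0.0715) or 2 (0.069) or aminaphtone 6 h replicate 3 (0.0519). In control cells the same difference was 0.02 (-0.28 to 0.32). Whether the rise differed between the arms was tested by the interaction of treatment and time, which gave an adjusted p of 0.539.

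LIF, leukemia inhibitory factor, which acts through LIFR and gp130, had 10.58, 10.57 and 11.07 in aminaphtone cells at 1 h, against 10.91, 11.38 and 11.19 in control cells. Its 3 h signals were 11.25, 11.58 and 11.11 in aminaphtone cells, against 10.44, 11.05 and 10.65 in control cells. Its 6 h signals were 10.70, 10.66 and 10.84 in aminaphtone cells, against 10.05, 9.92 and 10.14 in control cells. At 1 h the aminaphtone arrays lie low and overlap the controls, and at 3 and 6 h every aminaphtone array lies above every control array. The difference was -0.42 log2 (SE 0.175) at 1 h (adjusted p = 0.146; 0.0497 with the arrays paired, and so called lower), 0.60 at 3 h (1.51-fold higher, adjusted p = 0.425) and 0.70 at 6 h (1.62-fold higher, adjusted p = 0.356). The unadjusted p at 6 h was 0.00099, and the difference at 6 h was called when the fit held only the arrays compared (adjusted p = 0.0199). The treatment difference at 3 h exceeded that at 1 h by 1.02 log2 and that at 6 h by 1.12, and the test of the interaction gave an adjusted p of 0.311 (unadjusted p = 0.000493). Control cells fell by 1.12 log2 (SE 0.175), 2.18-fold, between 1 and 6 h (adjusted p = 3e-04). In aminaphtone cells LIF rose by 0.57 log2, 1.48-fold, between 1 and 3 h (adjusted p = 0.0466) and differed by -0.01 (-0.38 to 0.36) between 1 and 6 h. The call at 3 h was held in 6 of the 18 fits that left out 1 array each; the highest adjusted p was 0.209, without aminaphtone 1 h replicate 1 or aminaphtone 3 h replicate 2. It was also lost with no filter (0.0527) and with centred arrays (0.0586).

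IL11, a gp130 cytokine of stromal cells, had 7.19, 7.53 and 7.20 in aminaphtone cells at 1 h, against 7.11, 7.62 and 7.71 in control cells. Aminaphtone cells at 3 h had 7.70, 8.43 and 7.52, against 7.93, 8.80 and 7.86 in control cells. Aminaphtone cells at 6 h had 7.38, 7.48 and 7.37, against 7.57, 7.59 and 7.50 in control cells. Replicate 2 at 3 h is the high array in both arms, and the arms overlap at 1 and 3 h and lie apart, aminaphtone lower, at 6 h. The treatment differences of -0.18, -0.31 and -0.14 log2 at 1, 3 and 6 h (SE 0.242 each) had adjusted p values of 0.563, 0.867 and 1. Between 1 and 3 h the difference was 0.58 log2 in aminaphtone cells (adjusted p = 0.157) and 0.72 in control cells (adjusted p = 0.0599). In control cells it was called, as a 1.64-fold rise, in a fit that blocked same-numbered arrays within each treatment over all 3 times (adjusted p = 0.0283). Within the treatments, the numbers behaved as pairs only between control arrays of 1 and 3 h. With no blocking and 1 array left out, the rise in control cells was called in 2 of 18 fits. Without control 3 h replicate 2 it was 0.42 log2 (adjusted p = 0.222).

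Of the IL-12 family chains, EBI3 had 7.59, 7.74 and 7.94 in aminaphtone cells at 1 h, against 8.07, 8.84 and 8.95 in control cells. At 3 h it had 9.08, 9.06 and 8.81 in aminaphtone cells, against 9.63, 9.71 and 9.99 in control cells. At 6 h it had 9.32, 9.17 and 8.99 in aminaphtone cells, against 10.31, 10.30 and 9.99 in control cells. No aminaphtone array reached the lowest control array of its time, which held for 32 transcript clusters in this direction, 0.203% of those tested. The difference was -0.86 log2 (SE 0.19) at 1 h, 1.82-fold lower, -0.79 at 3 h, 1.73-fold lower, and -1.04 at 6 h, 2.06-fold lower, with adjusted p values of 0.0933, 0.201 and 0.0448. Averaged over the times EBI3 was lower by 0.90 log2 (difference -0.90, 95% interval -1.13 to -0.67), 1.86-fold, with an adjusted p of 0.000546 that stayed at or under 0.00248 whichever array was left out. The call at 6 h alone was held without any 1 control array of 1 h and without aminaphtone 3 h replicate 3, and was lost without any 1 of the other 14 arrays. There its adjusted p lay between 0.0537 and 0.311, the highest without control 6 h replicate 1, at differences between -0.96 and -1.15 log2. With each array centred on its median it was 0.0522. At 1 h the difference was called with the arrays paired (adjusted p = 0.019). The treatment difference at 3 h minus that at 1 h was 0.07 log2 and at 6 h minus 1 h -0.18, with an interaction adjusted p of 0.864.

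EBI3 also rose over time in both arms. Between 1 and 3 h it rose 2.34-fold in aminaphtone cells (1.22 log2, adjusted p = 0.000449) and 2.23-fold in control cells (1.16 log2, adjusted p = 0.000768; 0.0604, and so not called, in a fit held to these 2 groups). Between 1 and 6 h it rose 2.64-fold in aminaphtone cells (1.40 log2, adjusted p = 9.14e-05) and 2.99-fold in control cells (1.58 log2, adjusted p = 2.65e-05). By group mean the order from high to low is control 6 h (10.20 ± 0.182), control 3 h (9.78 ± 0.189), aminaphtone 6 h (9.16 ± 0.161), aminaphtone 3 h (8.98 ± 0.151), control 1 h (8.62 ± 0.478) and aminaphtone 1 h (7.76 ± 0.174; SD, n = 3 each). The arrays of neighbours in this order overlap except between control 3 h and aminaphtone 6 h and between control 1 h and aminaphtone 1 h.

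IL12A had 6.29, 6.24 and 6.47 in aminaphtone cells at 1 h, against 6.50, 6.42 and 6.55 in control cells. Its 3 h signals were 6.68, 6.97 and 6.78 in aminaphtone cells, against 6.86, 6.91 and 6.87 in control cells. Its 6 h signals were 6.71, 6.43 and 6.82 in aminaphtone cells, against 6.92, 6.91 and 7.30 in control cells. The aminaphtone arrays lie under the controls at 6 h and overlap them at 1 and 3 h, all at low signals. The difference at 6 h was -0.39 log2 (SE 0.129, adjusted p = 0.775), and at 1 and 3 h it was -0.16 and -0.07. IL12A rose 1.39-fold in aminaphtone cells between 1 and 3 h (0.47 log2, adjusted p = 0.0246), a call lost without aminaphtone 1 h replicate 1 (0.103) or 2 (0.0988) or aminaphtone 3 h replicate 2 (0.119). In control cells it rose 1.47-fold between 1 and 6 h (0.56 log2, adjusted p = 0.00483, and 0.0762 in a fit held to these 2 groups). Not called were the differences of 0.39 log2 in control cells between 1 and 3 h (0.0556) and 0.32 in aminaphtone cells between 1 and 6 h (0.101). The interaction of treatment and time had an adjusted p of 0.646.

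IL23A had 7.16, 7.09 and 7.13 in aminaphtone cells at 1 h, against 7.40, 7.62 and 7.61 in control cells. Aminaphtone cells at 3 h had 7.27, 7.40 and 7.09, against 7.39, 7.65 and 7.57 in control cells. Aminaphtone cells at 6 h had 7.38, 7.27 and 7.03, against 7.40, 7.39 and 7.28 in control cells. Every aminaphtone array lies under every control array at 1 h, and the arms overlap at 3 and 6 h. The difference at 1 h was -0.42 log2 (SE 0.117), 1.33-fold lower, with an adjusted p of 0.139, and it was called with the arrays paired (0.0401). Averaged over the times the difference was -0.28 (95% interval -0.42 to -0.13, adjusted p = 0.0663). None of its time differences was called, and its 6 group means span 0.42 log2.

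Among the colony-stimulating factors, CSF1 had 7.93, 7.90 and 8.65 in aminaphtone cells at 1 h, against 8.53, 8.91 and 9.65 in control cells. At 3 h it had 10.60, 11.06 and 10.26 in aminaphtone cells, against 10.12, 11.20 and 10.33 in control cells. At 6 h it had 10.32, 10.33 and 10.47 in aminaphtone cells, against 9.90, 9.58 and 10.48 in control cells. Replicate 3 is the high array of both arms at 1 h and replicate 2 at 3 h, and the arms overlap at every time. At 1 h the difference was -0.87 log2 (SE 0.319), 1.83-fold lower, with an adjusted p of 0.139, and of 0.0255, a called fall, with the arrays paired. At 3 h it was 0.09 (95% interval -0.58 to 0.77) and at 6 h 0.39 (-0.29 to 1.06). CSF1 had the largest difference of the 8 genes at 3 h against 1 h in both arms: between 1 and 3 h it rose 5.60-fold in aminaphtone cells (2.48 log2, adjusted p = 7.7e-05) and 2.87-fold in control cells (1.52 log2, adjusted p = 0.00505). Between 1 and 6 h it rose 4.65-fold in aminaphtone cells (2.22 log2, adjusted p = 0.000168) and 1.94-fold in control cells (0.96 log2, adjusted p = 0.0348). The larger rise with aminaphtone was not called as a difference (interaction adjusted p = 0.53). The call in control cells at 6 h was lost without control 1 h replicate 1 (0.71 log2, adjusted p = 0.0897) or 2 (0.0925) or control 6 h replicate 1 (0.067) or 3 (0.172). With the fit held to the arrays compared, the control calls were lost at both times (0.0693 at 3 h and 0.10 at 6 h). With array weights the control differences were 0.81 log2 at 3 h, still called, and 0.29 at 6 h (adjusted p = 0.155), not called.

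CSF3 had 8.01, 8.30 and 7.98 in aminaphtone cells at 1 h, against 8.13, 8.46 and 8.46 in control cells. Its 3 h signals were 8.96, 9.21 and 8.55 in aminaphtone cells, against 9.34, 9.53 and 9.28 in control cells. Its 6 h signals were 8.96, 8.90 and 8.91 in aminaphtone cells, against 9.07, 9.34 and 9.17 in control cells. The aminaphtone arrays overlap the controls at 1 h and lie under all of them at 3 and 6 h. The differences of -0.25, -0.48 and -0.27 log2 at 1, 3 and 6 h (SE 0.153 each) had adjusted p values of 0.229, 0.474 and 1, and their average of -0.33 had 0.086. Between 1 and 3 h CSF3 rose 1.75-fold in aminaphtone cells (0.81 log2, adjusted p = 0.00242) and 2.04-fold in control cells (1.03 log2, adjusted p = 0.000321). Between 1 and 6 h it rose 1.78-fold in aminaphtone cells (0.83 log2, adjusted p = 0.00122) and 1.80-fold in control cells (0.84 log2, adjusted p = 0.000901).

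**Figure D2:**
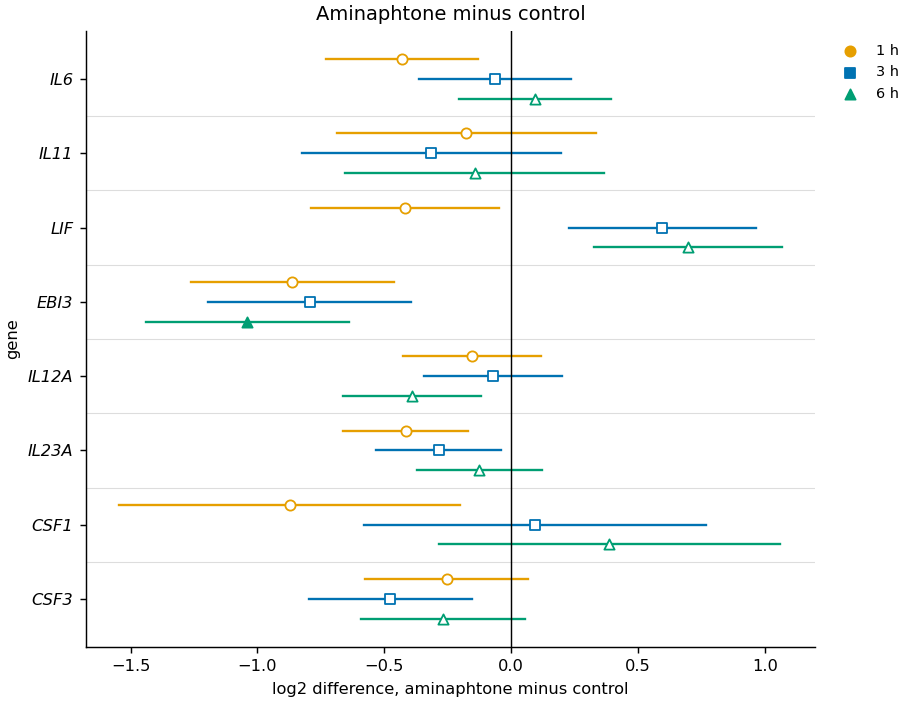
Aminaphtone minus control (log2, horizontal axis) for each of the 8 genes at 1, 3 and 6 h, with 95% intervals of the limma fit; filled points have an adjusted p under 0.05. All 8 differences at 1 h lie under 0, EBI3 stays under 0 at each time, and LIF lies above 0 at 3 and 6 h.

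Across the 8 genes, aminaphtone cells at 1 h had the lower mean for all 8, with a median difference of -0.42 log2, while 59.7% of all transcript clusters tested were lower and their median was -0.10. EBI3 and IL23A were lower without overlap of the arrays (background 7.55%). None of the 8 was called by limma at 1 h, where 14 transcript clusters were (0.0886%). At an unadjusted p under 0.05 there were 5 of 8, against 30.8% of all tested. In a fit with same-numbered arrays as pairs, 5 of 8 genes were called lower at 1 h (IL6, LIF, EBI3, IL23A and CSF1). The background was 4.75% called lower and 10.9% called higher. That fit also paired the arrays at 3 and 6 h, where the numbers did not behave as pairs, and took its spread from all 3 times. The labels give no pairing, which was inferred from how the arrays deviate from their group means. Without control 1 h replicate 1 and with no pairing, 5 of the 8 were called lower as well, but so were 27.5% of all transcript clusters. At 1 h the 3 controls are also the arrays that correlate least with each other, and the part this plays in the 1 h differences was not tested.

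At 3 h none of the 8 was called by limma, with 0.038% of transcript clusters called in all; 4 of 8 had an unadjusted p under 0.05, against 6.50%. EBI3 and CSF3 were lower without overlap of the arrays (background 4.99%) and LIF higher (background 7.58%). At 6 h EBI3 was the 1 gene called, among 17 transcript clusters called lower (0.108%), and 3 of 8 had an unadjusted p under 0.05, against 3.93%. EBI3, CSF3, IL11 and IL12A were lower without overlap at 6 h (background 7.25%) and LIF higher (background 8.86%). For the average over the times 1 of 8 was called lower, EBI3, against a background of 0.405%. The interaction was called for 0 of 8 genes in limma, with 2 of 8 at an unadjusted p under 0.05, against 0.038% called and 9.23% at the unadjusted p over all tested. These comparisons and the time differences share arrays, so their values are given side by side and not as support for each other.

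**Figure D3:**
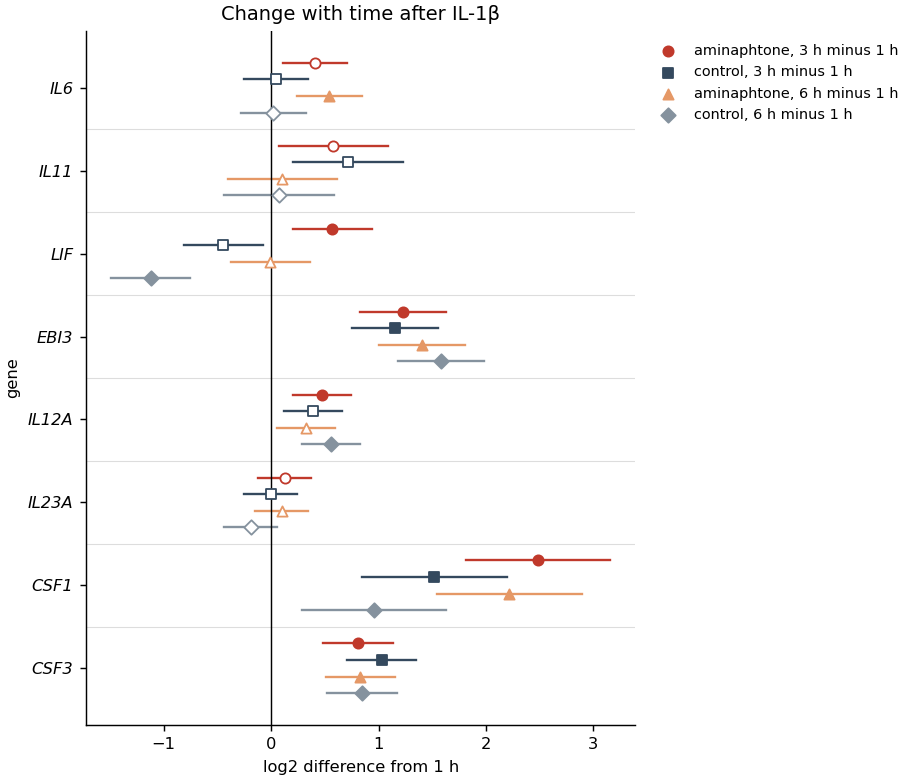
Log2 difference of 3 h minus 1 h and of 6 h minus 1 h (horizontal axis) for each of the 8 genes in aminaphtone and in control cells, with 95% intervals; filled points have an adjusted p under 0.05. EBI3, CSF1 and CSF3 lie above 0 in all 4 comparisons, and LIF lies under 0 at 6 h in control cells.

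Over time, aminaphtone cells had 5 of 8 genes called higher at 3 h than at 1 h (CSF1, EBI3, CSF3, LIF and IL12A; background 5.09%) and 4 of 8 higher at 6 h than at 1 h (CSF1, EBI3, CSF3 and IL6; background 6.01%). Control cells had 3 of 8 higher at 3 h than at 1 h (EBI3, CSF1 and CSF3; background 4.81%). With same-numbered arrays blocked within each treatment over all 3 times there were 4 of 8, IL11 included, at a background of 6.11%. That fit also blocked the 6 h controls and all aminaphtone arrays by number, where the numbers did not behave as pairs. At 6 h against 1 h control cells had 4 of 8 higher (EBI3, CSF3, CSF1 and IL12A; background 11.3%) and 1 lower, LIF (background 15.2%). Between 3 and 6 h 0 of 8 were called by limma in aminaphtone cells (background 0.266%; 1 of 8 at an unadjusted p under 0.05, against 9.82%) and 0 of 8 in control cells (background 0.513%; 3 of 8, against 10%). The differences of LIF between 3 and 6 h were -0.58 log2 in aminaphtone cells (adjusted p = 0.213) and -0.68 in control cells (adjusted p = 0.107).

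Some of these genes varied together among the replicate arrays of a group. Over the 18 arrays, the deviations from the group mean correlated at 0.895 between IL6 and CSF1, 0.827 between LIF and CSF1, 0.818 between IL11 and CSF3, and 0.671 between EBI3 and IL23A. The lowest values were -0.148 for IL12A with IL23A and -0.145 for EBI3 with IL12A. All of these correlations come from the same 18 arrays and are a description. Control 1 h replicate 1 lay low for EBI3 and CSF1, by 0.55 and 0.50 log2 under the group mean (deviations of -0.55 and -0.50), and aminaphtone 1 h replicate 3 lay 0.49 above it for CSF1.

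The genes most alike in pattern were sought for the 4 genes whose group means span over 1 log2, as Pearson's r over the 18 arrays, and are a description only. EBI3 went closest with ZC3H7B (r = 0.966), BID (0.953), a pro-apoptotic BCL2 family gene, and PLEK2 (0.942). CSF1 went closest with PLAT (0.969), tissue plasminogen activator, ZSCAN25 (0.961) and TNFAIP2 (0.960). CSF3 went closest with PRSS22 (0.949), a serine protease, LAMB3 (0.938), a laminin chain, and IL1B (0.923). LIF went closest with FGFR1 (0.925), a fibroblast growth factor receptor, BACE1 (0.923), the beta-secretase, and ZC3H12A (0.922), an endonuclease that degrades cytokine mRNAs.

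A list of 12 other ligands included FLT3LG and KITLG, which are not ligands of the receptor chains described below. Of the 12, 10 were measured and 6 lay above the filter (OSM, CTF1, IL27, IL12B, IL34 and FLT3LG). None was called by limma in any of the 11 comparisons, with at most 3 of 6 at an unadjusted p under 0.05, which was at 1 h with aminaphtone, against 30.8% of all tested. IL12B, the p40 partner of p35 and p19, and IL27, the p28 partner of EBI3, were both tested. Both lay under the median signal of annotated transcript clusters (7.534), IL27 at 7.21 and IL12B at 6.29, close to the filter at 6.193. This limits what the arrays can show of them. IL12B differed between the arms by -0.10 log2 at 3 h (adjusted p = 0.902) and -0.14 at 6 h (adjusted p = 1). At 1 h FLT3LG had the smallest p, at -0.34 log2 (adjusted p = 0.139), and it was the 1 of the 6 called, lower, with the arrays paired (0.0498).

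All 14 receptor chains were measured and 11 lay above the filter; IL12RB2, IL23R and CSF3R lay under it. None was called by limma with aminaphtone, nor at 1 h in the fit with paired arrays. At most 2 of 11 had an unadjusted p under 0.05, at 1 h, against 30.8% of all tested. Between 1 and 6 h in control cells 3 of 11 rose, against a background of 11.3%: OSMR, a receptor chain for oncostatin M, 2.11-fold (adjusted p = 0.00554), LIFR 2.28-fold (0.0192) and IL6ST, the gp130 gene, 1.73-fold (0.035). IL11RA, the specific IL-11 receptor chain, fell 1.48-fold (0.00598), as the 1 of 11 called lower, against a background of 15.2%. In aminaphtone cells none was called between these times, with 1 of 11 at an unadjusted p under 0.05, against 29.4% of all tested. The difference between the arms was tested by the interaction, which called none (0 of 11 at an unadjusted p under 0.05, against 9.23%). Between 1 and 3 h LIFR rose 2.33-fold in control cells (adjusted p = 0.0304), and IL6R, the specific IL-6 receptor chain, rose 1.41-fold in aminaphtone cells (adjusted p = 0.0334). Each was the 1 of 11 called in its arm between these times, against backgrounds of 4.81% called higher in control and 5.09% in aminaphtone cells. In the 1 h controls, which the control calls share, LIFR averaged 8.80 ± 0.784 and OSMR 11.50 ± 0.791 (SD, n = 3 each), the widest spread of any group for these genes. All 4 control calls at 6 h were lost when the fit held only the arrays compared (adjusted p 0.0875 to 0.137). Those of LIFR and IL6ST were also lost without control 1 h replicate 2 (0.104 and 0.16), control 1 h replicate 3 (0.0633 and 0.115) or control 6 h replicate 3 (0.10 and 0.17), and that of IL6ST without control 6 h replicate 1 (0.07) or with centred arrays (0.0508). The difference of OSMR was 0.62 log2 without control 1 h replicate 2 and 0.69 with array weights, against 1.08 in the full fit, and stayed called in both. The 3 h call of LIFR was lost without control 1 h replicate 2 (0.138) or 3 (0.0938) and without any 1 of the 3 h controls (0.053 to 0.121). That of IL6R was lost without any 1 of the aminaphtone arrays at 1 h (0.0585 to 0.158) or aminaphtone 3 h replicate 2 (0.30 log2, 0.185). Both were lost in fits held to the groups compared (0.129 for LIFR and 0.0643 for IL6R).

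Of 15 genes of JAK-STAT signalling 13 were tested. STAT5A, which carries signals of several CSF and cytokine receptors, was the 1 of 13 called with aminaphtone, by the average over the times. It was lower there (-0.41 log2, SE 0.0886, 1.33-fold, adjusted p = 0.0381), against a background of 0.405% called lower. It averaged 6.56 in aminaphtone cells and 6.85 in control cells at 1 h, 7.78 and 8.25 at 3 h, and 7.28 and 7.76 at 6 h. Its mean over all arrays, 7.41, lay under the median signal of annotated transcript clusters (7.534). The call was held in 3 of 18 fits that left out 1 array (without control 1 h replicate 1 or 2 or control 3 h replicate 1), with an adjusted p of up to 0.101 (without aminaphtone 6 h replicate 3), and was lost with centred arrays (0.0615). Over time, control cells had 2 of 13 called higher (background 4.81%) and 3 lower (background 7.98%) at 3 h against 1 h. At 6 h against 1 h they had 3 of 13 higher (background 11.3%) and 2 lower, near the background of 15.2%. Aminaphtone cells had 1 of 13 higher at 3 h (background 5.09%) and 2 higher at 6 h (background 6.01%). STAT5A rose between 1 and 3 h in aminaphtone cells (2.32-fold, adjusted p = 6.68e-05) and in control cells (2.62-fold, 2.04e-05). In control cells CISH, a feedback inhibitor of STAT5 signalling, fell 1.60-fold by 3 h (0.00156) and 1.86-fold by 6 h (8.18e-05), and PIM1, a kinase induced by STATs, fell 1.61-fold by 3 h (0.0234; -1.04 log2 with array weights, against -0.68) and 1.67-fold by 6 h (0.00776). JAK1, the kinase bound to gp130, rose between 1 and 6 h, 1.57-fold in aminaphtone cells (0.0436) and 2.10-fold in control cells (0.00177). The JAK1 call in aminaphtone cells was held in 7 of 18 fits that left out 1 array (up to 0.12, without aminaphtone 1 h replicate 1) and lost with centred arrays (0.0624). That of PIM1 at 3 h was lost without control 1 h replicate 2 (0.0595) or 3 (0.12) or control 3 h replicate 1 (0.108) or 3 (0.0669). In fits held to the groups compared, the control calls of CISH at 3 h (0.105), PIM1 at 3 and 6 h (0.216 and 0.0755) and JAK1 at 6 h (0.0513) were lost. PIAS3 also fell in control cells between 1 and 3 h (-0.92 log2, adjusted p = 0.00159), a call lost in such a fit (0.0901). In the fit with paired arrays, 5 of 13 were called with aminaphtone at 1 h. CISH, PIM1 and SOCS3, a feedback inhibitor of gp130 signalling, were lower (adjusted p 0.0172 to 0.0418). JAK2 and PTPN11 were higher (0.0455 each). Over all transcript clusters 4.75% were called lower and 10.9% higher in that fit. The interaction was called for none of the 13 by limma, with 4 of 13 at an unadjusted p under 0.05, against 9.23% of all tested.

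**Figure D4:**
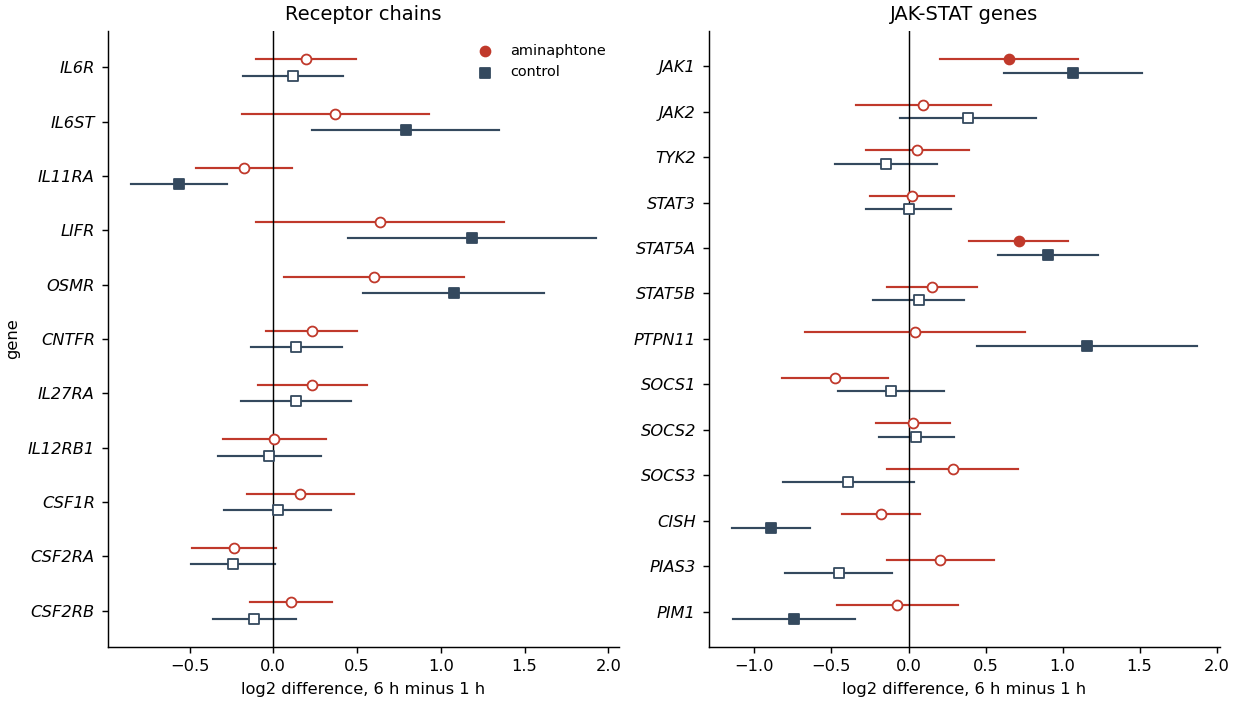
Log2 difference of 6 h minus 1 h (horizontal axis) for the receptor chains and JAK-STAT genes above the filter, in aminaphtone and in control cells, with 95% intervals; filled points have an adjusted p under 0.05. OSMR, LIFR and IL6ST are called higher and IL11RA lower in control cells, and none of the 4 is called in aminaphtone cells.

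All 15 regulators of the transcription or decay of these mRNAs were tested. None was called by limma with aminaphtone, with 6 of 15 at an unadjusted p under 0.05 at 1 h, against 30.8% of all tested. At 1 h 11 of 15 had the lower mean in aminaphtone cells, with a median difference of -0.28 log2, while 59.7% of all transcript clusters tested were lower, with a median of -0.10. The 3 with the smallest p were CEBPD, a C/EBP factor (-0.77, adjusted p = 0.0688), RELA, the p65 subunit of NF-κB (-0.57, 0.124), and CEBPB (-0.61, 0.139). In the fit with paired arrays, 7 of 15 were called lower at 1 h, against the background of 4.75%. Adjusted p values in that fit were 0.0172 for CEBPD, 0.0233 for CEBPB, 0.0396 for RELA and 0.0454 for FOSL1. The rest of the 7 were ZFP36 (0.0369), ZFP36L1 (0.0396) and ZC3H12A (0.0454), so genes for decay of mRNAs were among those lower. At 6 h against 1 h, aminaphtone cells had 7 of 15 lower (background 10.7%) and 1 higher, RELA (1.36-fold, 0.0371, background 6.01%). Control cells had 10 of 15 lower (background 15.2%). ZFP36, which encodes tristetraprolin, a protein that promotes decay of mRNAs with AU-rich elements, fell 3.93-fold in aminaphtone cells (-1.97 log2, adjusted p = 1.36e-05) and 6.20-fold in control cells (-2.63 log2, adjusted p = 5.7e-07). JUNB, an AP-1 subunit, fell 3.07-fold in aminaphtone cells (7.19e-06) and 3.58-fold in control cells (1.75e-06). Between 1 and 3 h control cells had 6 of 15 lower (background 7.98%) and 1 higher (NFKB1, background 4.81%). Aminaphtone cells had 6 of 15 lower (background 5.45%) and 3 higher (background 5.09%). In control cells ZFP36 (-1.67 log2, adjusted p = 9.87e-05), JUNB (-1.44, 3.41e-05), FOSL1 (-1.19, 0.000158) and ZFP36L1 (-0.96, 3.82e-05) fell. NFKB1, the p50 subunit of NF-κB, rose 2.02-fold in aminaphtone cells (0.00332) and 2.08-fold in control cells (0.00251) between these times. Between 3 and 6 h REL was the 1 of 15 called in control cells, lower (-1.73 log2, adjusted p = 0.0434, background 0.165%). That call was held in 5 of 18 fits that left out 1 array. The interaction was called for none of the 15 by limma, with 6 of 15 at an unadjusted p under 0.05, against 9.23% of all tested.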

How the data were processed

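Affymetrix Human Gene 1.0 ST arrays measured total RNA of 18 ECV304 samples. The authors deposited 1 log2 value for each transcript cluster and array, made with RMA in Affymetrix Expression Console, per the submitters' processing notes; no version is given there, and the build of the array annotation is not given in the sources used here. Precision is limited by the number of arrays, since there is no read depth. The labels give treatment and time, and so 6 groups of 3.

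Of 28869 transcript clusters, 21062 carry a gene annotation, 19310 of them a single symbol, and the 15796 annotated ones with a mean log2 above the 25th percentile (6.193) were tested. All 18 arrays entered 1 model of the 6 group means, which leaves 12 residual degrees of freedom, and 11 comparisons were drawn from it with limma 3.58.1 under R 4.3.3. P-values are two-sided and adjusted by Benjamini and Hochberg within each comparison over all transcript clusters tested, with a threshold of 0.05. Not overlapping means that all 3 arrays of one group exceed all 3 of the other. The calculation was tested on simulated data.

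The genes, lists, markers and tests were chosen with earlier results of these data known. All 10 genes were to be named, and of each list up to 4 genes by p where a gene passed and up to 3 otherwise. NFKB1 in control cells and RELA were named outside this rule after their values were seen. So were the list genes called with aminaphtone at 1 h only with paired arrays. PTPN11 was called in control cells at 3 h against 1 h only with blocked arrays, and that call was not described. Some genes that the rule gave were not described. They were CEBPD and ZFP36L1 in control cells at 6 h against 1 h, ATF3 and NFKBIZ in aminaphtone cells, STAT5A at 6 h against 1 h, and JUNB and ZFP36 in aminaphtone cells at 3 h. Where no gene of a list passed, most of the up to 3 genes by p were not named either. Lists were 12 other ligands, 14 receptor chains, 15 JAK-STAT genes, 15 regulators and 4 marker lists. Genome positions and promoters come from RefSeq (GRCh38.p14), whose promoter table holds 5 of the 8 genes measured.

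To see if replicate numbers mark pairs, same-numbered arrays of 2 groups were correlated in how they deviate from their group means, over the transcript clusters tested. At 1 h treated and control arrays correlated at 0.746, 0.411 and 0.322, and control arrays of 3 and 1 h at 0.313, 0.359 and 0.258. In both cases 6 of 6 arrays had their highest correlation with the array of equal number, so both sets were taken as pairs. In the other 7 pairs of groups checked the numbers were not taken as pairs. Alternatives were no filter, a stricter filter, a fit of only the arrays compared, the replicate block, median centring, array weights, and leaving out each array.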

Additional observations from a re-analysis of the deposited data

Results flagged for a closer look

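The treatment difference of LIF ran in opposite directions at different times. The groups overlap at 1 h, where each aminaphtone array lay under its same-numbered control, while at 3 and 6 h every aminaphtone array lay above every control array. The difference of aminaphtone minus control at 3 h less that at 1 h was 1.02 log2, and at 6 h less that at 1 h it was 1.12. The interaction test in limma did not call it over all transcript clusters (adjusted p = 0.311). The cause was not tested.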

How the results depend on the processing

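Without one array at a time, treatment calls among the 8 genes ranged 0 to 5 (1 h), 0 to 1 (3 h), 0 to 1 (6 h), 1 to 3 (average) and 0 to 2 (interaction). Time calls ranged 3 to 6, 3 to 4 and 0 to 0 in aminaphtone cells (3 h against 1 h, 6 h against 1 h, 6 h against 3 h) and 3 to 5, 4 to 5 and 0 to 1 in control cells. Transcript clusters called without 1 array ranged 6 to 8516 (1 h), 0 to 48 (3 h), 2 to 38 (6 h), 50 to 3444 (average) and 3 to 2995 (interaction). For time, in the order above, they ranged 790 to 2641, 1643 to 4008 and 4 to 260 in aminaphtone cells and 988 to 5719, 2586 to 7083 and 16 to 309 in control cells. The counts with all arrays were 14, 6, 17, 131 and 6 for treatment, 1665, 2644 and 42 in aminaphtone cells and 2020, 4185 and 81 in control cells. The highest counts at 1 h, for the average and for the interaction came without control 1 h replicate 1. With array weights, which ran between 0.13 and 7.84, the genes called for treatment were 7 (1 h), 2 (3 h), 3 (6 h), 6 (average) and 4 (interaction). Over time they numbered 2 in aminaphtone cells at 6 h against 3 h, and 6 at 3 h against 1 h and 2 at 6 h against 3 h in control cells. The transcript clusters numbered 9907, 288, 2798, 6769 and 6384 for treatment, 4795, 7694 and 5054 in aminaphtone cells and 7890, 9416 and 2077 in control cells. Array weights also turned the direction of IL6 in control cells, to -0.28 log2 at 3 h against 1 h and -0.26 at 6 h against 1 h, both near 0 otherwise, and ended the call of CSF1 in control cells at 6 h against 1 h (0.29 log2). The replicate block called 5 genes (1 h) and 4 (average), and 2465, 10, 26, 735 and 11 transcript clusters for treatment; at 3 and 6 h the arrays share only a number. Of the 88 gene results, 78 kept their side of the threshold and direction under the block, 9 were called only there, and 1, LIF in aminaphtone cells at 3 h, was lost (0.052). With only the arrays compared, which leaves fewer degrees of freedom, 2 genes were called at 6 h, and 1 at 3 h against 1 h and 3 at 6 h against 1 h in control cells. The transcript clusters then numbered 0, 1 and 70 at 1, 3 and 6 h, 2666, 5201 and 164 in aminaphtone cells and 228, 1088 and 166 in control cells. Centring left 0 genes called at 6 h and 2 transcript clusters at 3 h, both higher against 3 higher and 3 lower otherwise, with 11 at 6 h and 26 in aminaphtone cells at 6 h against 3 h. The stricter filter, which tests fewer transcript clusters and leaves out IL12A and IL23A, called 87 for the average. With no filter 87 of the 88 gene results kept their side. Causes were not tested otherwise. No gene has another transcript cluster of a single symbol, so that alternative gave no value. IL12A and IL23A lie under the median signal, which limits what the arrays can show of them.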
